A study of Homo sapiens with 8 samples.

Results

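The lysine tRNA genes are the 44 genes, of 631 human tRNA genes in the deposited table, whose amino acid column reads Lys, leaving out genes whose name marks them as nuclear copies of mitochondrial tRNAs (0 among the Lys rows). They comprise 24 genes with the anticodon CTT (Lys-CTT) and 20 with TTT (Lys-TTT), and name and columns disagreed for 0 of them. The study counted small RNA reads per tRNA gene in HEK293T cells, a human embryonic kidney line, with full or reduced ADAT2, a subunit of the enzyme that turns adenosine at the first anticodon position of certain tRNAs into inosine. Control cells had received a CRISPR/Cas9 plasmid without a guide RNA and carry 100% of ADAT2 expression per the labels. Knockdown cells are a stable heterozygous line made with Cas9 and a guide against ADAT2, labelled as having 50%. Each group has 2 libraries, which the labels number 3 and 4, and each library was run on 2 lanes, giving 8 samples in all. ADAT2 itself is not among the counted genes, so the knockdown was not checked here. One edited line stands against one control line, so that a difference between lines and an effect of ADAT2 cannot be told apart.

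Lysine tRNAs are charged by lysyl-tRNA synthetase and read the codons AAA and AAG. Lys-CTT pairs with AAG, while Lys-TTT pairs with AAA and can also read AAG through its modified wobble uridine, which is made by the Elongator-dependent pathway. Neither anticodon begins with adenosine, so neither is a substrate of ADAT2. A human Lys-TTT tRNA is also the primer that HIV uses for reverse transcription.

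The libraries held 698143 and 1069932 tRNA counts in the control and 878791 and 1211292 in the knockdown (numbers 3 and 4 in this order throughout). The Lys genes held 84991 and 87741 of these counts in the control and 84977 and 100656 in the knockdown. A gene with 0 counts could have up to 3, which is 2.48 to 4.30 CPM by library (counts scaled to a common total of tRNA counts). Separate cultures are not mentioned in the labels, and the spread that the p-values rest on may be technical. The counts do not separate mature tRNAs, precursors and fragments, and in bulk RNA fewer cells with a transcript and less of it per cell cannot be told apart. Genes of 1 copy group, meaning the same anticodon and the same first number in the symbol, are near-identical, and the sources used here do not give how reads with several matches were assigned. The split among such genes is therefore uncertain.

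Most lysine counts came from few genes. Of the 44 genes, 42 had at least 1 count and 38 had a count in every library. Lys-CTT-9-1 and Lys-TTT-15-1 were at 0 in all 4 libraries. Mean control CPM was over 1000 for 18 genes and under 100 for another 18. Between 13 and 14 genes made up 90% of the lysine counts of a library, and the 10 genes of highest mean CPM in the control made up 84.6% and 84.5% in the control and 81.3% and 82.8% in the knockdown. Gene length hardly differs here, with 35 of the 44 genes, these 10 among them, spanning 73 bases.

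**Figure D1:**
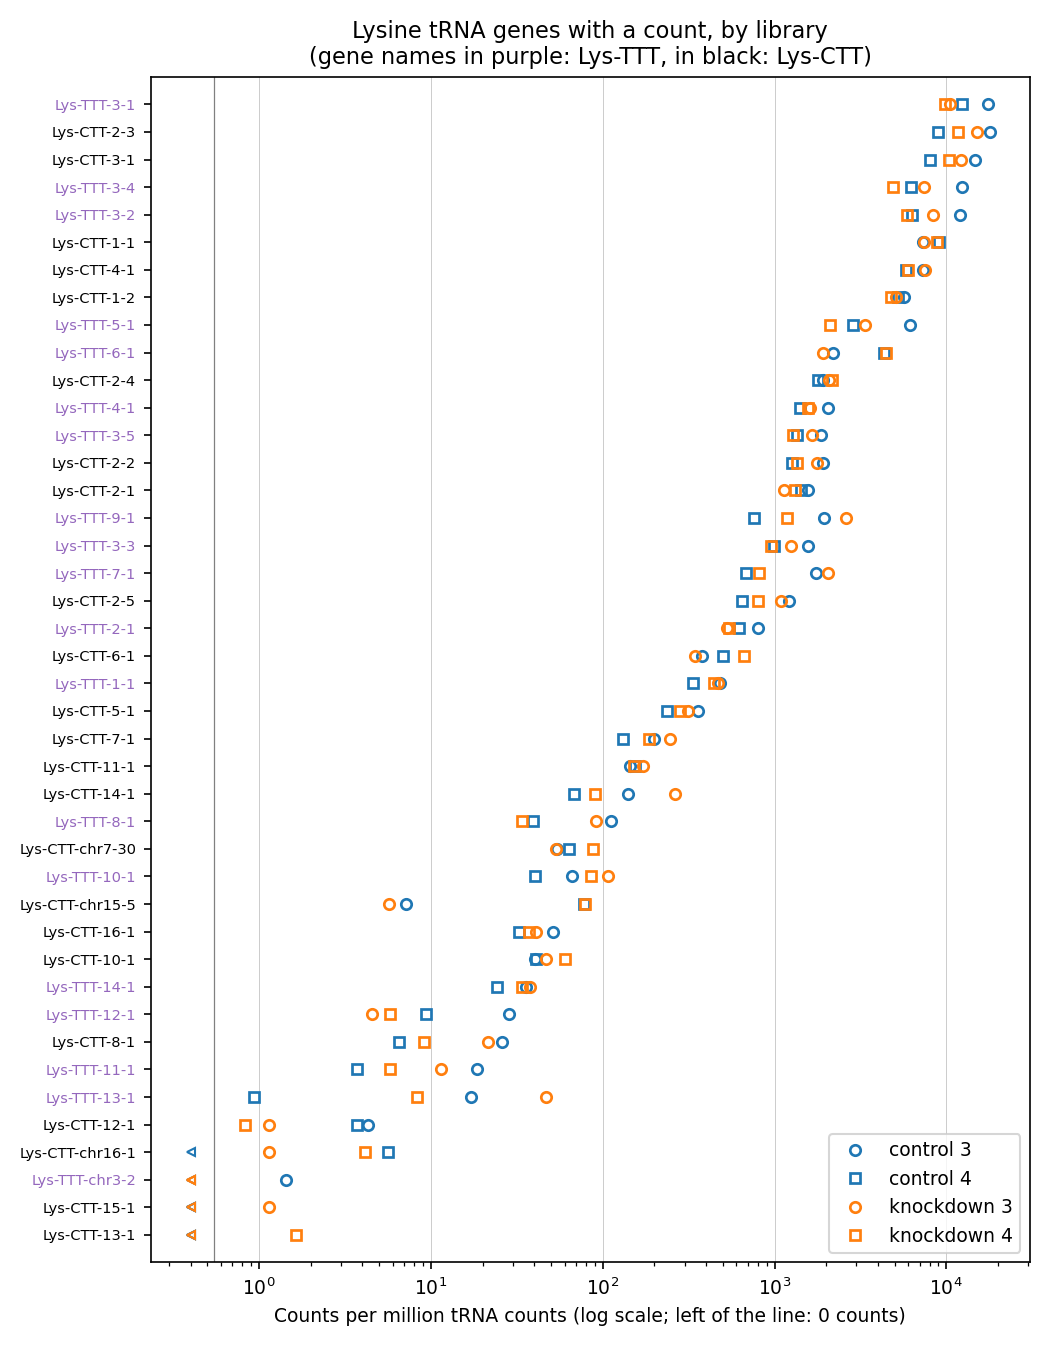
CPM (x axis, log scale) of the 42 lysine tRNA genes with a count (y axis), for each of the 4 libraries (circles: number 3, squares: number 4, blue: control, orange: knockdown, triangles: 0 counts). Levels run from about 1 CPM for the rarest to 17905 CPM for Lys-CTT-2-3, and for many genes circles and squares lie further apart than blue and orange.

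Among the genes with most counts were 3 copies of Lys-TTT-3. Lys-TTT-3-1 (hg38 chr1:204506527-204506599, plus strand, between annotated genes) had 17415 and 12400 CPM in the control and 10458 and 9832 CPM in the knockdown. Both knockdown libraries lay below both control libraries. Lys-TTT-3-2 (chr1:204507030-204507102, minus strand) lies 430 bases away and had 11942 and 6314 CPM against 8359 and 5928 CPM. Lys-TTT-3-4 (chr11:59560335-59560407, minus strand) had 12306 and 6260 CPM against 7366 and 4894 CPM. For these last genes the groups overlapped, since number 3 exceeded number 4 in either group.

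A further pair of Lys-TTT genes was among the 10. Lys-TTT-5-1 (chr11:59556429-59556501, plus strand), close to Lys-TTT-3-4, had 6181 and 2867 CPM in the control and 3375 and 2096 CPM in the knockdown, a control mean of 4524 ± 2343 (SD, n = 2) against 2736 ± 904. Lys-TTT-6-1 (chr6:27334990-27335062, minus strand) had 2192 and 4328 CPM against 1911 and 4452 CPM. Lys-TTT-6-1 thus followed the library number and not the group.

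The other genes of the 10 were Lys-CTT genes, in which control and knockdown overlapped except in Lys-CTT-1-2. Lys-CTT-2-3 (chr5:181221979-181222051, minus strand) had 17905 and 8898 CPM in the control and 14990 and 11662 CPM in the knockdown. Lys-CTT-3-1 (chr16:3157405-3157477, minus strand), overlapping an exon of the GENCODE gene AC108134.2 on the same strand, had 14736 and 8072 CPM against 12228 and 10405 CPM. The knockdown values of both genes lay between the control values. Lys-CTT-1-1 (chr14:58239895-58239967, minus strand), in an intron of ARMH4, had 7337 and 9097 CPM against 7395 and 8855 CPM. Lys-CTT-4-1 (chr16:3191501-3191573, plus strand), in an intron of AJ003147.2, had 7309 and 5838 CPM against 7510 and 5961 CPM. These pairs of values nearly repeated between the groups. Lys-CTT-1-2 (chr15:78860562-78860634, plus strand), in an intron of MORF4L1, had 5639 and 5210 CPM against 5068 and 4753 CPM, so that both knockdown libraries were lower by a small margin.

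The lysine genes lie on 14 chromosomes, with 8 genes on chromosome 16 and 7 each on chromosomes 1 and 6. Of the 44, 27 lay between GENCODE v29 genes, 15 lay in introns and 2 overlapped exons. Among the 44, 0 were flagged as having an intron of their own. A run of 6 Lys-CTT genes at chr16:3157405-3196225 gave 19.5% and 18.1% of the lysine counts in the control and 22.2% and 21.1% in the knockdown. Lys-TTT-3-1 and Lys-TTT-3-2 together gave 24.1% and 22.8% against 19.5% and 18.96%. Lys-TTT-5-1 and Lys-TTT-3-4 on chromosome 11 together gave 15.2% and 11.1% against 11.1% and 8.41%. In RefSeq (GRCh38.p14), 27 of the 44 genes matched a tRNA gene at both ends, and these held 99.2% to 99.5% of the lysine counts. Another 6 matched a tRNA pseudogene and held 0.173% to 0.475%.

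The share of lysine genes in all tRNA counts gave no separation of the groups. It was 12.2% and 8.20% in the control and 9.67% and 8.31% in the knockdown, a mean of 10.2% ± 2.81 (SD, n = 2) against 8.99% ± 0.962 (two-sided exact permutation p = 1). Within number 3 the knockdown was lower by 2.50 percentage points, and within number 4 it was 0.109 points higher.

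The balance between both anticodons separated the groups. In the control, Lys-TTT genes gave 50.0% of the lysine counts of number 3, with a 95% Wilson interval of 49.6 to 50.3, and 46.9% of those of number 4 (46.6 to 47.2). The knockdown values were 43.4% (43.0 to 43.7) and 41.1% (40.8 to 41.4). Both knockdown libraries thus lay below both control libraries, with means of 48.4% ± 2.17 and 42.2% ± 1.58 (SD, n = 2). The two-sided exact permutation p was 0.333, the smallest that 2 against 2 libraries allow, and 0.889 after adjustment over the 16 shares compared. The shift was -6.60 percentage points within number 3 and -5.76 within number 4. As log2 of Lys-TTT over Lys-CTT counts, which needs no scaling of libraries, the control stood at -0.00 and -0.18 and the knockdown at -0.39 and -0.52. The intervals treat each read as independent and leave out the spread between libraries. PCR copies of 1 molecule were not told apart, so the intervals may be too narrow even for counting error.

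Within Lys-TTT, the lower share came from the Lys-TTT-3 copies and Lys-TTT-5-1. The 5 Lys-TTT-3 genes gave 37.1% and 33.3% of the lysine counts in the control and 30.1% and 27.5% in the knockdown. Lys-TTT-5-1 gave 5.08% and 3.50% against 3.49% and 2.52%. The other 14 Lys-TTT genes together gave 7.82% and 10.1% against 9.79% and 11.1%. Their knockdown shares exceeded the control of the same number. Lys-TTT-3-1 alone, the gene with the highest mean control CPM, gave 14.3% and 15.1% in the control against 10.8% and 11.8% in the knockdown (means 14.7% ± 0.577 and 11.3% ± 0.719, exact permutation p = 0.333).

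Of the main Lys-CTT groups, 3 took a larger share of the lysine counts in both knockdown libraries than in both controls. The 5 Lys-CTT-2 genes gave 20.1% and 17.1% in the control and 21.8% and 20.8% in the knockdown. Lys-CTT-3-1 gave 12.1% and 9.84% against 12.6% and 12.5%, and Lys-CTT-4-1 gave 6.004% and 7.12% against 7.77% and 7.17%. The 2 Lys-CTT-1 genes gave 10.7% and 17.4% against 12.9% and 16.4%, so that the groups overlapped and number 4 was higher in either. As shares of the Lys-CTT counts alone, control and knockdown overlapped in each of these groups. Lys-CTT-2, for example, gave 40.2% and 32.2% of them against 38.4% and 35.4%. The remaining 15 Lys-CTT genes outside Lys-CTT-1 to Lys-CTT-4 together gave 1.15% to 1.99%.

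**Figure D2:**
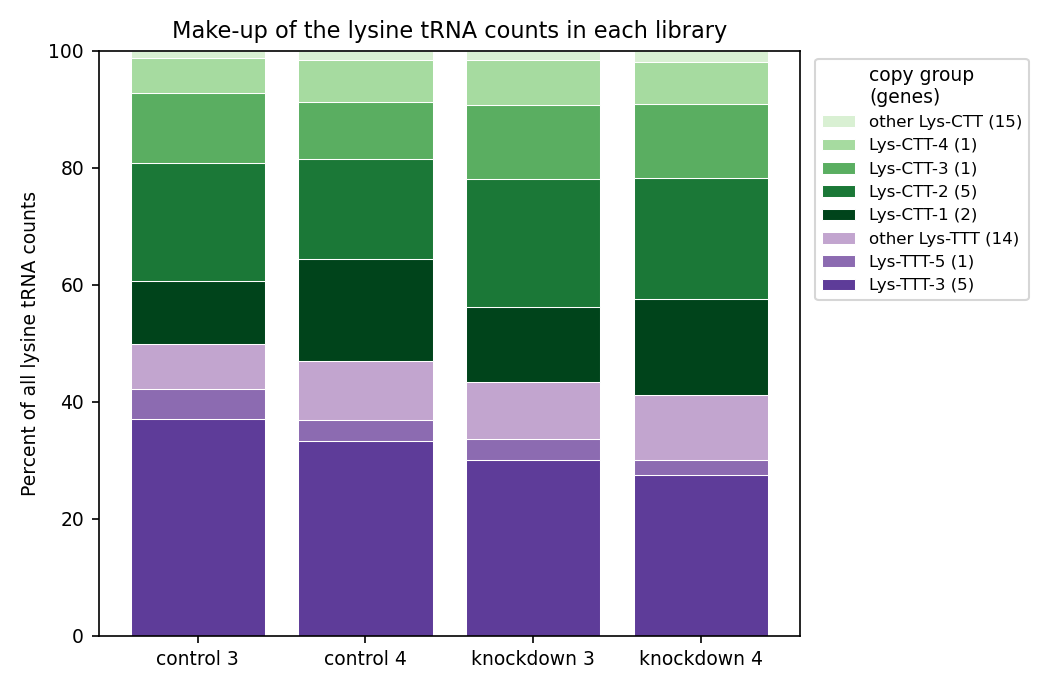
Percent of all lysine tRNA counts (y axis) given by each copy group in each of the 4 libraries (bars, stacked; purple: Lys-TTT, green: Lys-CTT, number of genes in brackets). The purple part is smaller in the knockdown (43.4% and 41.1%) than in the control (50.0% and 46.9%), mostly in its lowest block, Lys-TTT-3.

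Copies of 1 group were counted unequally, and in much the same order in every library. Of the Lys-TTT-3 counts, Lys-TTT-3-1 held 38.6% and 45.4% in the control and 36.0% and 43.0% in the knockdown, while Lys-TTT-3-3 held 3.49% to 4.29%. The highest copy exceeded the lowest by 8.38 to 12.5 times. Of the Lys-CTT-2 counts, Lys-CTT-2-3 held 73.1% and 63.5% against 71.2% and 67.4%, and it exceeded Lys-CTT-2-5 by 13.8 to 14.8 times. Lys-CTT-1-1 held 56.5% and 63.6% of the Lys-CTT-1 counts against 59.3% and 65.1%. Within each number, Lys-TTT-3-1 and Lys-TTT-3-4 took a smaller part of the Lys-TTT-3 counts in the knockdown, by -2.64 and -2.42 points and by -1.95 and -1.53 points. The other 3 copies took a larger part.

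**Figure D3:**
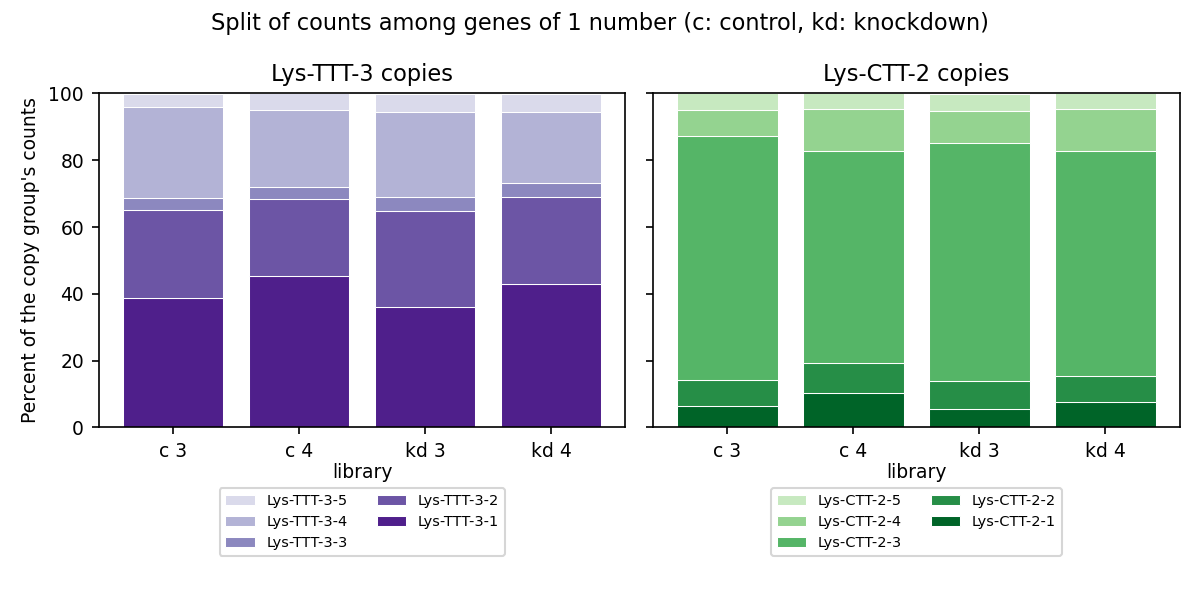
Percent of a copy group's counts (y axis) held by each gene of Lys-TTT-3 (left) and of Lys-CTT-2 (right) in the 4 libraries (c: control, kd: knockdown, stacked bars). Lys-TTT-3-1, Lys-TTT-3-2 and Lys-TTT-3-4 hold most of the first group and Lys-CTT-2-3 most of the second in every library.

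In the test over all 4 libraries, no lysine gene passed. Counts were compared with edgeR's quasi-likelihood test over the 489 tRNA genes with enough counts, 36 of them Lys, and the threshold was a Benjamini-Hochberg adjusted p of 0.05. It called 0 of 36 Lys genes beside 0% of all genes tested. At an unadjusted p under 0.05 it gave 0 Lys genes and 1 gene in all, and DESeq2 also called 0 Lys genes. Lys-TTT-5-1 had a log2 fold change (knockdown over control) of -0.77 ± 0.98 (SE) and Lys-TTT-3-1 one of -0.64 ± 0.86, both with an adjusted p of 0.998 by edgeR. The 8 Lys genes not tested had at most 20 counts in any library. Summed by anticodon, Lys-TTT had a log2 fold change of -0.41 ± 0.74 and Lys-CTT of -0.03 ± 0.69, each with an adjusted p of 0.997 by edgeR over 51 families, of which 0% were called.

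The spread behind these errors followed the library number. Between number 4 and number 3, with the group as the other term, edgeR called 77.7% of the 489 genes (40.3% higher and 37.4% lower in number 4). Of the 36 Lys genes, 2 were higher and 28 lower, and their median log2 difference was -0.83 beside 0.01 for all genes tested. Both families were lower in number 4, Lys-TTT by -0.87 ± 0.17 (adjusted p = 9.44e-06 by edgeR) and Lys-CTT by -0.71 ± 0.17 (adjusted p = 0.000144), where 72.5% of families were called (37.3% higher and 35.3% lower). The genes higher in number 4 were Lys-TTT-6-1, with 0.67 ± 0.23, and Lys-CTT-chr15-5, a low-scoring gene with 5 counts in each library of number 3 and 83 and 96 in those of number 4. What the numbers stand for is not stated in the labels, and values within each number and fits with the number as a term are therefore given beside the results.

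Within each number, the Lys-TTT genes leaned lower in the knockdown. Of the 29 Lys genes that averaged at least 50 counts, the TMM-scaled ratio of knockdown to control was above 1 in both numbers for 8, beside 25.5% of 411 such tRNA genes, and below 1 in both for 14, beside 37.7%. Over the 411 genes this lean depended on the scaling, with 32.8% higher and 32.1% lower under RLE factors and 38.4% higher and 28.0% lower under library totals. For all 14 Lys-TTT genes among them both numbers gave the same direction, 10 lower and 4 higher with TMM. Among the higher, Lys-TTT-7-1 had a log2 ratio of only 0.0023 in number 4. With RLE factors 9 of the 14 were lower and 4 higher, and with library totals 8 and 3. Of the 15 Lys-CTT genes, 4 were lower, 4 higher and 7 differed in direction between the numbers. With RLE factors 3 were lower and 4 higher, and with library totals 2 and 4. The median log2 ratio of all 411 genes was 0.03 in number 3 and -0.14 in number 4 with TMM, 0.04 and -0.02 with RLE factors, and -0.04 and 0.12 with library totals.

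**Figure D4:**
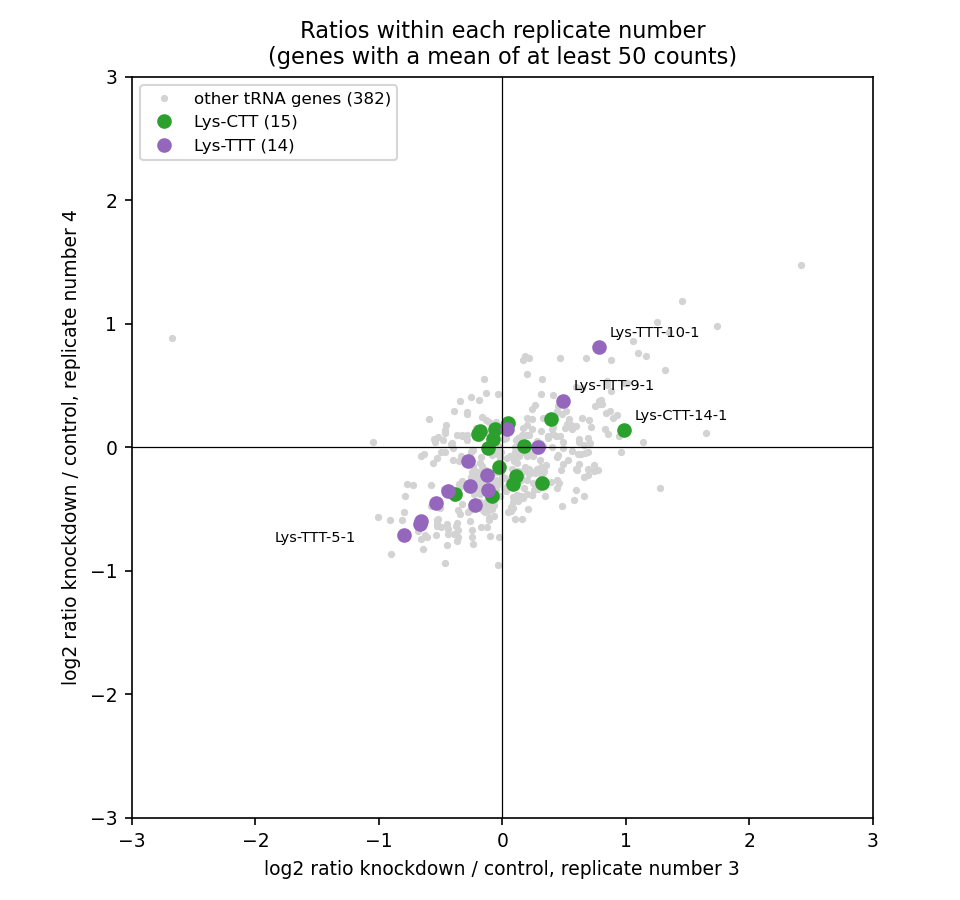
Log2 ratio of knockdown to control (TMM-scaled counts) in number 3 (x axis) and number 4 (y axis) for genes with 50 counts or more on average (purple: 14 Lys-TTT, green: 15 Lys-CTT, grey: 382 other tRNA genes). Lys-TTT-5-1 lies lowest of the lysine genes, at -0.80 and -0.71, and Lys-TTT-10-1 highest in number 4, at 0.78 and 0.81.

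By size, 3 Lys genes had a TMM-scaled log2 ratio under -0.5 in both numbers, beside 4.38% of the 411 genes. These were Lys-TTT-5-1 (-0.80 and -0.71), Lys-TTT-3-4 (-0.67 and -0.62) and Lys-TTT-3-1 (-0.66 and -0.60). Lys-TTT-2-1 followed with -0.54 and -0.45, and Lys-TTT-3-2 with -0.44 and -0.35. The count below -0.5 depended on the scaling. With RLE factors it held 1 gene, Lys-TTT-5-1 (-0.79 and -0.59), beside 2.19% of all, and with library totals 0, beside 0.973%, where Lys-TTT-5-1 was at -0.87 and -0.45. With TMM only Lys-TTT-10-1 was above 0.5 in both, with 0.78 and 0.81, beside 3.89% of the 411 genes. It was also above 0.5 in both with the other scalings, and Lys-TTT-9-1 joined it with RLE factors. Lys-TTT-10-1 had few counts, 46 and 43 in the control and 95 and 103 in the knockdown. It matches a tRNA pseudogene in RefSeq and lies at chr19:41242237-41242309 in an intron of AXL, on the opposite strand.

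With the replicate number as a second term, edgeR called 39 of 489 genes, or 7.98% (5.32% higher and 2.66% lower). It called 3 of the 36 Lys genes, or 8.33%, a share near that of all genes. With 4 libraries this fit has little spread of its own per gene, so its SE and p rest mostly on a spread pooled over genes. The same holds below for copy groups and families. All settings with this term reuse the same 4 libraries. Lys-TTT-5-1 was lower in the knockdown (log2 fold change -0.76 ± 0.24, adjusted p = 0.0310 by edgeR), and it passed in all 5 settings with this term. Lys-TTT-10-1 was higher (0.80 ± 0.27, adjusted p = 0.0408) and passed in 4 of the 5, while the DESeq2 setting gave it no adjusted p. Lys-TTT-13-1, with 12 and 1 counts in the control and 41 and 10 in the knockdown, was higher (1.70 ± 0.55, adjusted p = 0.0310) and passed in 3 of the 5. Lys-TTT-10-1 and Lys-TTT-13-1 match tRNA pseudogenes in RefSeq, as does Lys-CTT-14-1 below. Lys-TTT-3-1 (-0.63 ± 0.31, adjusted p = 0.233 by edgeR) and Lys-TTT-3-4 (-0.64 ± 0.28, adjusted p = 0.178) did not pass with TMM scaling and passed in 2 of the 5 settings, those with library totals and with DESeq2. Of the genes higher in the knockdown, Lys-TTT-9-1 (0.44 ± 0.21, adjusted p = 0.218 by edgeR) and Lys-CTT-14-1 (0.60 ± 0.23, adjusted p = 0.0845) also did not pass with TMM, and each passed in 3 of the 5. The number of lysine calls in each direction depended on the setting. It was 4 higher and 1 lower under RLE factors, 3 and 3 under library totals and 1 and 3 under DESeq2. The shares over all genes also moved. They were 9.61% higher and 2.86% lower under RLE factors and 10.8% and 4.70% under library totals. Under DESeq2 they were 7.43% and 5.07% of the 296 genes given an adjusted p. DESeq2 gave no adjusted p to Lys-TTT-10-1, Lys-TTT-13-1 and Lys-CTT-14-1, all called higher under RLE factors, so these could not pass there. With DESeq2 the log2 fold change was 0.88 for Lys-TTT-10-1 and 1.98 for Lys-TTT-13-1.

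Summing near-identical copies removes the uncertain split among them. It does not settle reads that match more than 1 copy group, whose assignment is not given either. Of 326 copy groups tested, 27 were lysine groups, and without the number as a term 0 passed, beside 0% of all. With it, edgeR called 13.8% of all groups (10.1% higher and 3.68% lower) and 5 of the 27 lysine groups, 3 of them lower. The 5 Lys-TTT-3 genes together had 31492 and 29233 counts in the control and 25551 and 27722 in the knockdown. Their log2 fold change was -0.52 ± 0.19 (adjusted p = 0.0444 by edgeR), passing in 3 of 6 settings. Lys-TTT-5 was at -0.74 ± 0.18 (adjusted p = 0.00169, passing in 5 of 6) and Lys-TTT-2 at -0.48 ± 0.17 (adjusted p = 0.0468, passing in 1 of 6). The higher groups were the single genes Lys-TTT-10 (0.82 ± 0.28, adjusted p = 0.0360 by edgeR, passing in 5 of 6) and Lys-TTT-13 (1.67 ± 0.54, adjusted p = 0.0254, passing in 3 of 6). Both match tRNA pseudogenes in RefSeq. Lys-CTT-2 (-0.04 ± 0.19, adjusted p = 0.935 by edgeR) and Lys-CTT-1 (-0.14 ± 0.19, adjusted p = 0.708) did not pass.

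At the family level the number term gave -0.32 ± 0.17 for Lys-TTT (adjusted p = 0.254 by edgeR) and 0.04 ± 0.17 for Lys-CTT (adjusted p = 0.969), where 5.88% of the 51 families were called. The family ratios within a number moved with the scaling. Scaled over families, Lys-TTT was at -0.62 in number 3 and -0.03 in number 4 and Lys-CTT at -0.23 and 0.31, while the median family was at -0.00 and 0.27. Relative to that median, Lys-TTT was at -0.62 and -0.30 and Lys-CTT at -0.23 and 0.04. The ratio of Lys-TTT to Lys-CTT is free of this choice and was lower by -0.38 in number 3 and by -0.34 in number 4 on the log2 scale.

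The lysine genes that were lower in the knockdown were mostly Lys-TTT genes with a high gene prediction score. The deposited table gives each gene this score and also a mismatch column of whole numbers that is not explained. Of the 29 Lys genes that averaged at least 50 counts, 21 had mismatch 0, and of these 12 were lower in both numbers and 3 higher. These 21 were 10 Lys-TTT genes, with 9 lower and 1 higher, and 11 Lys-CTT genes, with 3 lower and 2 higher. Of the 8 with a mismatch above 0, 2 were lower and 5 higher. They were 4 Lys-TTT genes, with 1 lower and 3 higher, and 4 Lys-CTT genes, with 1 lower and 2 higher. The median log2 ratios were -0.12 and -0.29 for mismatch 0 and 0.34 and 0.14 for a mismatch above 0. With other scalings the counts were 11 and 3 against 1 and 5 (RLE), and 9 and 2 against 1 and 5 (library totals).

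Among the other tRNA genes, 115 of 303 with mismatch 0 were lower in both numbers and 73 higher, and 26 of 79 with a mismatch above 0 were lower and 24 higher. Across the 29 Lys genes the score and the log2 fold change of the fit with the number term had a Spearman correlation of -0.71, beside -0.10 across the 411 genes. The score also went with the level. Its Spearman correlation with mean control CPM was 0.79 across the 42 Lys genes with a count and 0.50 across 574 such tRNA genes. Score, level and anticodon were not separated here. These are descriptions across genes that share 4 libraries, and genes are not independent replicates. Lys genes with a mismatch above 0 gave 4.19% and 3.19% of the lysine counts in the control and 6.38% and 4.25% in the knockdown, so that both knockdown libraries lay above both control libraries, knockdown 4 by a small margin (two-sided exact permutation p = 0.333, the smallest possible). Most of these counts came from Lys-TTT-9-1 and Lys-TTT-7-1. Lys-TTT-9-1 had 1363 and 812 counts in the control and 2297 and 1432 in the knockdown, and Lys-TTT-7-1 had 1222 and 726 against 1788 and 987.

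**Figure D5:**
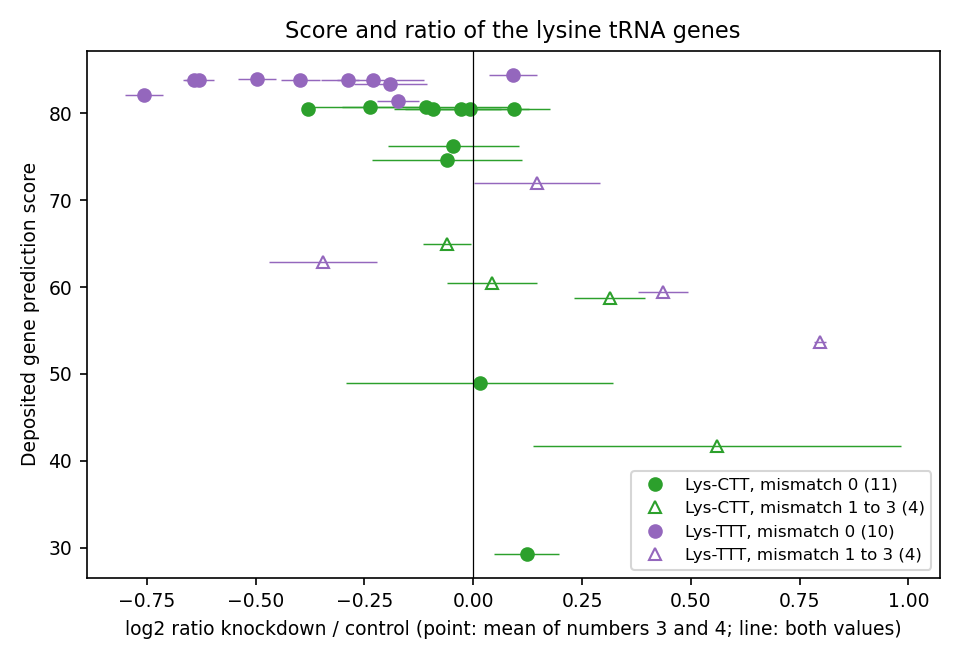
Deposited gene prediction score (y axis) against the log2 ratio of knockdown to control (x axis; point: mean of both numbers, line: the values of numbers 3 and 4) for the 29 lysine genes that averaged at least 50 counts. The filled points (mismatch 0) with scores over 80 reach from about -0.75 to just above 0, and 5 of the 8 open triangles (mismatch above 0) lie above 0 in both numbers.

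Related tRNAs were described by lists. The first list held 3 families with an Elongator-modified wobble uridine, Glu-TTC, Gln-TTG and Arg-TCT, and does not cover all families with such a uridine. In it, 27 of 42 genes were tested, 0 were called in either fit (beside 7.98% of all genes with the number term), and the median log2 fold change with the number term was -0.19, beside -0.04 for all genes tested and -0.23 for Lys-TTT. Relative to the median family, Glu-TTC was at -0.40 and -0.04, Gln-TTG at -0.22 and -0.07 and Arg-TCT at 0.05 and -0.27. Asn-GTT, which reads the other codons of the box that lysine shares, had 25 of 40 genes tested, of which 2 were called higher and 0 lower with the number term (median -0.06). In the 8 families with adenosine at the first anticodon position, the substrates of ADAT2, 99 of 116 genes were tested, of which 9 were called higher and 1 lower with that term (median 0.14). Of all genes tested, 5.32% were called higher and 2.66% lower with it. None of the genes in these lists was called without it.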

How the data were processed

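Total RNA from HEK293T cells was extracted with TRIzol and made into size-selected small RNA libraries, per the labels. The authors deposited whole-number counts per tRNA gene, 1 column per library, which were matched to groups by the library codes in the labels (0 count columns were left over). The submitters' processing notes name Bowtie2 2.2.2 and the build hg38 (GRCh38). For multiple matches, mismatches and strand, the sources used here give no treatment. The gene prediction score is as deposited by the authors. The intron flag and mismatch number are also deposited columns.

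The test was that of edgeR 4.0.16 (run in R 4.3.3; TMM, filterByExpr with a minimum count of 10, quasi-likelihood, Benjamini-Hochberg threshold 0.05) on genes, on sums per anticodon family and on sums per copy group, over all tRNA genes. The SE is the log2 fold change divided by the root of F. Ratios within a number are of TMM-scaled counts with 0.5 added. Shares were compared by two-sided exact permutation, with 95% Wilson intervals (scipy 1.17.1). Total counts per library ran from 698143 to 1211292. Alternatives were DESeq2 1.42.0, other scalings, no filter, the replicate number as a block, and leaving out a library. The edgeR fits were run on simulated counts with known changes as a check of the code. Their power for changes of the size reported here was not measured.

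Positions were compared with GENCODE 29 and RefSeq. tRNA sequences were not used here. Genes given with all values were the 10 of highest mean control CPM, those called in either fit, and those with ratios past 0.5 in both numbers at a mean of at least 50 counts; Lys-TTT-3-2, Lys-TTT-2-1 and Lys-CTT-chr15-5 are also named beside them. Members and lists were chosen with earlier results of these data known.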

Additional observations from a re-analysis of the deposited data

How the results depend on the processing

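Without a number term, 0 Lys genes and 0 Lys copy groups were called under every scaling, filter, tool and left-out library tried. Deviations from the group mean correlated between libraries of 1 number (0.920 over 489 genes), but 2 numbers do not establish pairs. With the replicate block, 3 of 36 Lys genes were called with TMM (7.98% of all genes tested), 6 with library totals (15.5%) and 5 with RLE factors (12.5%). DESeq2 called 4, or 17.4% of the 23 Lys genes given an adjusted p, beside 12.5% of the 296 such genes in all. Without a filter 4 were called, or 9.52% of 42 Lys genes, beside 7.32% of all. Called copy groups numbered 5, 5, 3, 1 and 4 in the same order (13.8%, 15.95%, 8.59%, 1.98% and 11.6% of all groups), and 2 with gene-level TMM factors (7.67%). The last setting, the block without a filter, initiator Met apart and other scalings of the within-number ratios were chosen after seeing the data. The Lys-CTT family turned from -0.03 to 0.039 with the replicate block, to 0.0070 with library totals added, to 0.042 without a filter and to 0.028 with initiator Met apart. Small log2 fold changes also turned positive with the block and library totals, RLE factors, DESeq2 or no filter, in this order to 0.067, 0.040, 0.050 and 0.049 for Lys-CTT-2-3, to 0.049, 0.022, 0.032 and 0.031 for Lys-CTT-3-1 and to 0.035, 0.0076, 0.018 and 0.017 for Lys-CTT-4-1. Lys-CTT-4-1 without the block turned to 0.051 (DESeq2), 0.039 (RLE), 0.035 (library totals) and 0.050 (no filter), and the Lys-CTT-2 group with it to 0.042 (library totals) and 0.0017 (no filter). Leaving out 1 library moved the family log2 fold change between -0.43 and 0.44 for Lys-CTT and between -0.87 and 0.19 for Lys-TTT, and the difference in the Lys share between -3.18 and 0.789 percentage points. The shift in the Lys-TTT share stayed between -7.71 and -4.65 points, and that of Lys-TTT-3-1 between -3.90 and -2.88. Among genes and groups whose sign turned, the ranges were -0.61 to 0.69 (Lys-CTT-2-3), -0.54 to 0.59 (Lys-CTT-3-1), -1.33 to 0.094 (Lys-TTT-3-4), -1.03 to 0.30 (Lys-TTT-3-2), -0.22 to 0.064 (Lys-CTT-1-1), -0.51 to 0.38 (Lys-CTT-4-1), -0.55 to 0.10 (Lys-CTT-1-2), -1.53 to 0.064 (Lys-TTT-5-1), -0.52 to 0.33 (Lys-TTT-6-1), -0.53 to 4.92 (Lys-TTT-13-1), -0.50 to 0.46 (Lys-CTT-2 group) and -0.32 to 4.79 (Lys-TTT-13 group). The cause of these turns was not tested. Of the other comparisons for single genes and groups, 190 kept their sign and did not newly pass. Another 33 passed where the fit without a number term had not. Among the 190, DESeq2 with the block gave the genes Lys-TTT-10-1 and Lys-TTT-13-1 no adjusted p.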
